A study of Mus musculus with 16 samples.

Results

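The response of wild-type (WT) mast cells to the cytokine IL-33 was read from 8 of the 16 RNA sequencing libraries of the series, 4 from cells given IL-33 and 4 from untreated cells. The libraries were chosen by their labels alone, so no measured value decided which libraries were included. Of the 55487 genes of the count table, 15470 passed a filter on low counts and were tested. The genes named were picked largely by their measured changes, and the gene lists were chosen with earlier results of these data known. The series held mouse cells of C57BL/6 background in 4 groups of 4 replicates: WT with IL-33, WT without treatment, Nbeal2-/- with IL-33 and Nbeal2-/- without treatment. Nbeal2 encodes a BEACH-domain protein needed for platelet alpha granules. The Nbeal2-/- groups are described here mainly where the WT response was tested against theirs. Their libraries also entered the filter on low counts, the scaling and the estimate of spread behind every WT test. With the 8 WT libraries alone 14916 genes were tested and 8540 called, against 15470 and 8903 with all 16. The title of the series names bone marrow derived mast cells, whereas the cell type label spells the same abbreviation out as mononuclear cells. The sources used here do not state the IL-33 dose, the hours of exposure, the age of the cultures or the Nbeal2 allele. No label states that replicates were separate animals or cultures, so the p-values speak for the spread between these libraries.

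IL-33 is an alarmin, a cytokine that barrier cells release when they are damaged. Mast cells sense it through the receptor ST2, encoded by Il1rl1, which pairs with the accessory chain encoded by Il1rap and recruits the adaptor MyD88 and kinases of the IRAK family. The signal divides towards the IKK complex, which frees NF-kB from its inhibitors, and towards the p38 and JNK kinases, which act on AP-1 factors. Mast cells are known to answer IL-33 with cytokines and chemokines, without the rapid granule release that crosslinked IgE triggers. They depend on the growth factor receptor Kit and store histamine, serotonin, proteases and proteoglycans in their granules.

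As a sum, the defining genes of mast cells were abundant in all 8 libraries. They summed to 67805 to 71212 CPM with IL-33 and 62130.4 to 65264 CPM without it. Of the 20 listed symbols all but Mcpt5 were in the count table, and these 19 passed the filter on low counts. CPM are counts per 1000000 counts of a library, scaled by TMM. Single markers could be low at rest, such as Tpsab1 at 2.40 to 4.23 CPM in the untreated libraries. Of the eosinophil markers 5 of 9, the peroxidase gene Epx among them, had no count in any WT library. The list summed to 7.44 to 10.5 CPM with IL-33 and 18.9 to 20.8 CPM without it, nearly all of it Ccr3, a chemokine receptor gene that fell (log2 fold change -1.07). Basophil markers, several of which mast cells share, summed to 8657 to 9207 CPM with IL-33 and 9607 to 10663 CPM without it. Of these 9 markers 2 rose (1 by limma) and 4 fell, where 28.9% of all genes tested rose and 28.6% fell. The largest change of the list was a rise, that of the basophil-type protease gene Mcpt8 (log2 fold change 4.13). Among the other members Cd200r3 fell to 221 ± 29.3 CPM with IL-33 against 369 ± 33.3 CPM without it (SD, n = 4 in each group, as for every mean of WT libraries that follows). Prss34, a basophil protease gene, averaged 2.51 ± 0.883 CPM with IL-33 against 4.15 ± 1.72 CPM without it, and its call (log2 fold change -0.72, adjusted p = 0.0421 by edgeR) was lost when any 1 of 6 of the 8 WT libraries was left out (adjusted p up to 0.185). The part of such cells in other results was not tested. The granule genes of neutrophils were near 0, with neutrophil markers summing to 1.25 to 2.08 CPM with IL-33 and 1.24 to 1.65 CPM without it. B cell markers summed to at most 0.495 CPM. Of the monocyte list Ccr2, a chemokine receptor gene, was the most abundant, at 272, 246, 32.9 and 408 CPM with IL-33 and 381, 389, 49.6 and 652 CPM without it. It was lowest in replicate 3 of both groups and was not called, although with the replicate number as a block it was (log2 fold change -0.60, adjusted p = 3.72e-07). The next member, Adgre1, averaged 11.7 ± 0.989 CPM with IL-33 against 8.42 ± 0.688 CPM without it. WT library totals ran from 39080187 to 57694499 counts, so 1 CPM stood for at least 39.1 counts. Nbeal2 stood at 183 to 448 CPM over the WT libraries and at 64.3 to 103 CPM over the Nbeal2-/- libraries, so no library went against its genotype label. The WT replicates differed in sex make-up. In the deposited RPM (counts per 1000000 counts) 4 Y-linked genes summed to 191 to 206 in the WT libraries of replicates 1 and 2, to 22.02 with IL-33 and 19.3 without it in replicate 3, and to 5.28 with IL-33 and 2.38 without it in replicate 4. The female transcript Xist was at most 0.203 RPM in the WT libraries of replicates 1 and 2 and 977 to 1913 RPM in those of replicates 3 and 4. Each number had a library in both groups, so this did not separate IL-33 from untreated cells, and the replicates were not repeats of 1 source. Mitochondrial transcripts took 2.34% to 2.53% of the counts with IL-33 and 2.92% to 3.18% without it. In bulk RNA, fewer cells of a type and less RNA per cell cannot be told apart.

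IL-33 moved most expressed genes slightly and some very far. Of 15470 genes tested with edgeR, 8903 were called at an adjusted p under 0.05, which is 57.6% of those tested, with 4476 higher (28.9%) and 4427 lower (28.6%). Every list count that follows is to be read beside these shares of all genes. Most calls were small. The median size of a called change was 0.49 on the log2 scale, and 5120 called genes changed less than 1.5-fold. A change over 2-fold was called for 847 genes that rose (5.48%) and 1177 that fell (7.61%). The far tail was lopsided towards rises, since 109 genes rose and 16 fell by more than 5 on the log2 scale. The 4 replicate pairs moved the same way in 8504 of the 8903 called genes. In a principal component analysis of the 8 libraries the first component held 79.4% of the variance, with scores of 52.1 to 62.8 with IL-33 and -59.2 to -54.2 without it. The libraries given IL-33 and the untreated ones did not overlap for 8099 genes (52.4% of those tested). The split of calls differed between methods. With limma on log2(RPM + 1), which changes scaling, pseudocount and test at once, 38.1% of the called genes were higher. With edgeR 50.3% were, and 49.5% with RLE in place of TMM scaling. Why limma gave another split was not tested.

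**Figure D1:**
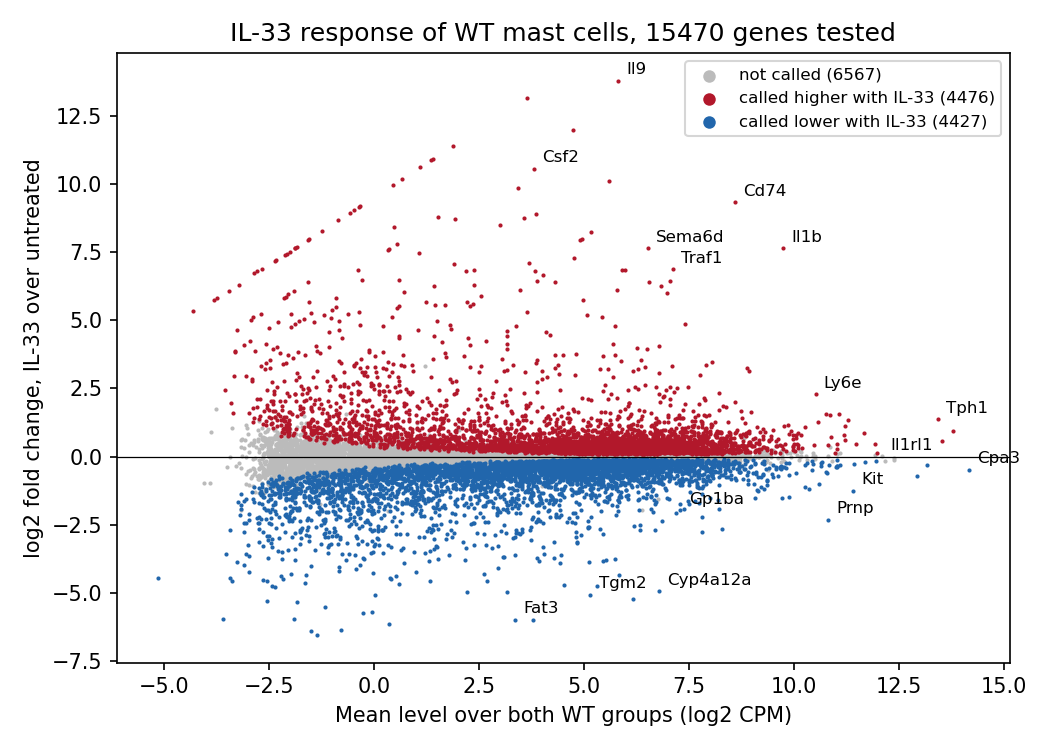
Log2 fold change of IL-33 over untreated in WT (vertical axis) against the mean level in log2 CPM (horizontal axis) for the 15470 genes tested, with red for the 4476 called higher, blue for the 4427 called lower and grey for genes not called. Rises reach further from 0 than falls, and Il1rl1 lies on the zero line among the most abundant genes.

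Among long noncoding classes the falls outnumbered the rises. Of 299 lincRNA genes tested 22 rose and 71 fell over 2-fold, and of 391 antisense genes 25 rose and 71 fell. Protein-coding genes had 705 rises and 896 falls over 2-fold of 12035 tested, and processed pseudogenes, whose reads can stem from their parent genes, had 41 and 22 of 1646. The sources used here do not state the strand setting of the counting, so antisense genes and their partners are uncertain.

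The receptor gene itself was not called, whereas several genes just below it fell. Il1rl1 stood at 4503, 4489, 4430.1 and 4229.5 CPM with IL-33 and 4072, 4715, 4169 and 4524 CPM without it. The groups overlapped and the gene was not called (log2 fold change 0.01, SE 0.06, adjusted p = 0.858). Il1rap, the accessory chain, had 14.97, 14.2, 13.9 and 14.2 CPM with IL-33 and 21.5, 25.1, 23.4 and 23.05 CPM without it, and every library given IL-33 lay below the untreated ones (log2 fold change -0.70, SE 0.08, adjusted p = 6.78e-07). The adaptor gene Myd88 fell too, to 55.0 ± 1.96 CPM with IL-33 against 80.3 ± 4.17 CPM without it (log2 fold change -0.54, SE 0.04, adjusted p = 9.39e-09). Of 34 genes from the receptor to its kinases, 8 rose and 14 fell, with no rise and 2 falls over 2-fold and a median log2 fold change of -0.10 beside 0.0029 over all genes tested. Of all genes tested, 28.9% rose and 28.6% fell. By limma 5 of the list rose and 18 fell. The falls over 2-fold were of genes at low level, Peli2, which encodes a ubiquitin ligase of this pathway, at 0.130 ± 0.0620 CPM with IL-33 against 1.149 ± 0.288 CPM without it and Map2k6, an activator of p38, at 0.518 ± 0.199 CPM with IL-33 against 1.58 ± 0.359 CPM without it. Irak3, which encodes a braking member of the IRAK family, was the largest rise of the list (49.2 ± 1.06 CPM with IL-33 against 25.3 ± 2.27 CPM without it, log2 fold change 0.96). Sigirr, which encodes an inhibitory receptor, fell by 0.85 on the log2 scale. Irak2 (log2 fold change -0.43), the p38 gene Mapk14 (log2 fold change -0.71) and Map3k1 (log2 fold change -0.73) fell, while Chuk, which encodes an IKK catalytic subunit, rose by 0.35. Irak4, Traf6 and Ikbkb were not called, although limma called Irak4 and Traf6 lower.

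Further down the pathway, most NF-kB genes rose. NF-kB is held in the cytoplasm by IkB proteins, and many of its own subunits and inhibitors are known targets of NF-kB, which closes feedback loops. Of 26 genes of this list 20 rose, 13 of them over 2-fold, and 2 fell, with a median log2 fold change of 0.99. The IkB-alpha gene Nfkbia had 179, 165, 171 and 164 CPM with IL-33 and 11.1, 10.5, 12.1 and 10.7 CPM without it. The groups lay far apart, with little spread inside either (log2 fold change 3.94, SE 0.08, adjusted p = 6.92e-17). Nfkb2, the precursor of the p52 subunit, had 439.9, 436, 461 and 417 CPM with IL-33 and 40.6, 42.7, 43.9 and 41.7 CPM without it (log2 fold change 3.38, SE 0.05, adjusted p = 1.23e-18). The subunit genes differed in size of change: Nfkb2 and Relb, which pair in the alternative pathway, rose by 3.38 and 3.22 on the log2 scale, whereas Nfkb1 rose by 0.71, Rel by 0.50 and Rela by 0.30. Traf1, an adaptor of TNF receptors, had the largest rise of the list at 248, 294, 326 and 236 CPM with IL-33 and 1.69, 2.13, 3.16 and 2.51 CPM without it. No library came near the other group (log2 fold change 6.88, SE 0.16, adjusted p = 1.4e-15). Tnip3 (39.1 ± 2.01 CPM with IL-33 against 0.445 ± 0.131 CPM without it), Bcl3 (28.3 ± 4.66 CPM with IL-33 against 3.91 ± 0.403 CPM without it), Nfkbiz (248 ± 10.3 CPM with IL-33 against 24.7 ± 1.20 CPM without it) and the A20 gene Tnfaip3 (208 ± 8.16 CPM with IL-33 against 56.6 ± 5.43 CPM without it) rose too. Tnip2 (log2 fold change -0.50) and Nlrc5 (log2 fold change -2.68, 0.0762 ± 0.0339 CPM with IL-33 against 0.515 ± 0.157 CPM without it) fell.

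The promoters of Il9 and of 3 of these feedback genes are shown because each holds a match to a kappa-B motif, printed in capitals. They are the 250 bases before and 50 after the annotated start in RefSeq on GRCm38.p6, on the strand of the gene.
Il9 (chr13:56482208-56482507, minus strand): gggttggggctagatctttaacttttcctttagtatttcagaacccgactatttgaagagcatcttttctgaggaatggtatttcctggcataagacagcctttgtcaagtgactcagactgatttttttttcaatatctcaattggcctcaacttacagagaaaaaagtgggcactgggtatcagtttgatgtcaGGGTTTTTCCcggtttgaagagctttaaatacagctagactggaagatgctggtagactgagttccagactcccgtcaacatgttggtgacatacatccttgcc
Nfkbia (chr12:55492598-55492897, minus strand): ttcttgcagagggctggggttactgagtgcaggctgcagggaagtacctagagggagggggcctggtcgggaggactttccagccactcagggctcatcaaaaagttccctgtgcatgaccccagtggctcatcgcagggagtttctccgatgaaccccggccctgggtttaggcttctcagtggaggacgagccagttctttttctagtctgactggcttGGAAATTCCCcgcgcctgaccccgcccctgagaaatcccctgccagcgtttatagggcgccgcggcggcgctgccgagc
Nfkb2 (chr19:46304487-46304786, plus strand): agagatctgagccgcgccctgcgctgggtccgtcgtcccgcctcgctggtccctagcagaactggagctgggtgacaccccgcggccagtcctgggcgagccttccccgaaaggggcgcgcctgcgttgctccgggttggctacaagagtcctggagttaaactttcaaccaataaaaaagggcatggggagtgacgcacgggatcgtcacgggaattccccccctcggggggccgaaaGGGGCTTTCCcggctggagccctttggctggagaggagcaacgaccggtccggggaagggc
Tnfaip3 (chr10:19015361-19015660, minus strand): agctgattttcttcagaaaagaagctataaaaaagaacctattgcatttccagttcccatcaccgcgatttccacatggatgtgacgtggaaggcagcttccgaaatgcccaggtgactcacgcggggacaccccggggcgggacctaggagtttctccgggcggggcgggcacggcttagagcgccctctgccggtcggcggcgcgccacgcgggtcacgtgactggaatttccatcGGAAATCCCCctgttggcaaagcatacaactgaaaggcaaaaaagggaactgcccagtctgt
The motif searched was GGG, any 2 bases and TTTCC, on both strands. In these 4 promoters the match begins at -54, -29, -11 and -12 relative to the start, in the order shown. It was present in 178 of the 10170 promoters available for tested genes (1.75%), in 31 of 584 promoters of genes called higher over 2-fold (5.31%), in 9 of 101 for rises over 16-fold (8.91%) and in 19 of 782 for falls over 2-fold (2.43%). TGANTCA, a motif of AP-1, was present in 9.59% of the promoters of rises over 2-fold, in 8.31% of those of falls and in 5.17% of all. The CRE motif TGACGTCA stood at 3.25%, 1.41% and 3.28%, and the E-box CACGTG at 8.05%, 6.65% and 10.1%, in the same order. No stretch that matches TGACGTCA holds a match to TGANTCA, and a promoter with several matches counts once. These are counts of letters in a window, chosen with the expression values known, and say nothing of binding.

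Cytokine messages with AU-rich or stem-loop elements are normally short-lived, and the genes that control this decay moved both ways. Zc3h12a, which encodes the endonuclease Regnase-1, rose to 139, 146, 144 and 133 CPM with IL-33, against 14.6, 14.6, 16.2 and 14.4 CPM without it (log2 fold change 3.23, SE 0.05, adjusted p = 4.29e-18). The replicates within each group were tightly placed. Zfp36, the tristetraprolin gene, was not called (10.1 ± 1.65 CPM with IL-33 against 9.63 ± 3.37 CPM without it), and its relatives Zfp36l1 (log2 fold change -0.91) and Zfp36l2 (log2 fold change -0.57) fell. Arid5a, whose protein stabilises Il6 messages, fell to 16.2 ± 1.62 CPM with IL-33 against 25.9 ± 2.11 CPM without it. Of 15 decay regulators 5 rose and 5 fell, near the shares of 28.9% and 28.6% over all genes tested.

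Immediate early genes were mixed. Of 23 genes of this list 11 rose and 5 fell, with a median log2 fold change of 0.13. Fosl1 (2.88 ± 0.742 CPM with IL-33 against 0.0624 ± 0.0313 CPM without it) and Atf3 (2.24 ± 0.527 CPM with IL-33 against 0.0707 ± 0.0534 CPM without it) rose from levels near 0. Egr2, a zinc finger factor gene, had 24.8, 39.2, 22.9 and 28.6 CPM with IL-33 and 2.25, 4.08, 2.2002 and 4.49 CPM without it, with all values of the IL-33 group above the untreated ones (log2 fold change 3.15, SE 0.22, adjusted p = 3.1e-09). Junb and Jun rose by 0.80 and 0.78 on the log2 scale, while Fos fell by 1.08 and Egr1 stood at 543 ± 91.2 CPM with IL-33 against 545 ± 88.6 CPM without it and was not called. Feedback genes of MAP kinase and growth factor signalling split too, with 7 of 19 rising and 6 falling, beside 28.9% and 28.6% of all genes tested. Dusp8, whose product inactivates JNK and p38, had 6.75, 7.80, 7.63 and 5.49 CPM with IL-33 and 0.284, 0.297, 0.198 and 0.291 CPM without it, with no overlap (log2 fold change 4.66, SE 0.17, adjusted p = 2.96e-13). Dusp5 and Dusp16 rose by 1.00 and 1.05 on the log2 scale, whereas Dusp6 and Dusp4 fell to 22.7 ± 2.59 CPM with IL-33 against 48.8 ± 3.50 CPM without it and 4.88 ± 1.03 CPM with IL-33 against 14.98 ± 1.94 CPM without it. In Nbeal2-/- cells Dusp8 averaged 3.56 CPM with IL-33 and 0.00496 CPM without it, with 1 count over the 4 untreated libraries, and the difference between the genotypes was called (adjusted p = 0.000879), although its size rests on that single count.

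The secreted products of the response came in blocks. IL-9, IL-13 and GM-CSF act on mast cells, epithelium, eosinophils and macrophages in type 2 inflammation. Il9 had 80.5, 141, 147 and 82.2 CPM with IL-33 and 0.0178, 0, 0 and 0 CPM without it. Only 1 read of the gene was counted over the 4 untreated libraries, so its ratio of 20879 carries a 95% counting interval of 3747 to 824702, which covers counting error only. Csf2 had 3 untreated counts and stood at 26.3, 27.4, 33.3 and 24.4 CPM with IL-33 and 0.0178, 0.0495, 0 and 0 CPM without it, a ratio of 1766 with an interval of 604 to 8569. Il13 was already transcribed at rest, with 86.0, 139, 126 and 86.1 CPM with IL-33 and 8.06, 11.9, 10.6 and 8.24 CPM without it (log2 fold change 3.50, SE 0.19, adjusted p = 2.44e-10). Replicates 2 and 3 were the higher pair with IL-33 for both Il9 and Il13. Il4, the other classic type 2 cytokine gene, stood at 10.3, 12.1, 13.8 and 9.86 CPM with IL-33 and 12.3, 12.1, 12.3 and 11.2 CPM without it. Its groups overlapped and it was not called (log2 fold change -0.06, SE 0.09, adjusted p = 0.583). Tslp rose at low level (0.921 ± 0.152 CPM with IL-33 against 0.128 ± 0.0667 CPM without it) and Tgfb1 rose by 0.90 on the log2 scale. Growth factor genes fell instead: Lif to 125 ± 20.7 CPM with IL-33 against 325 ± 27.9 CPM without it, Csf1 to 5.09 ± 0.299 CPM with IL-33 against 26.0 ± 3.70 CPM without it and Hbegf to 2.38 ± 0.330 CPM with IL-33 against 5.38 ± 1.01 CPM without it. In all 5 of 13 genes tested on this list rose and 4 fell.

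**Figure D2:**
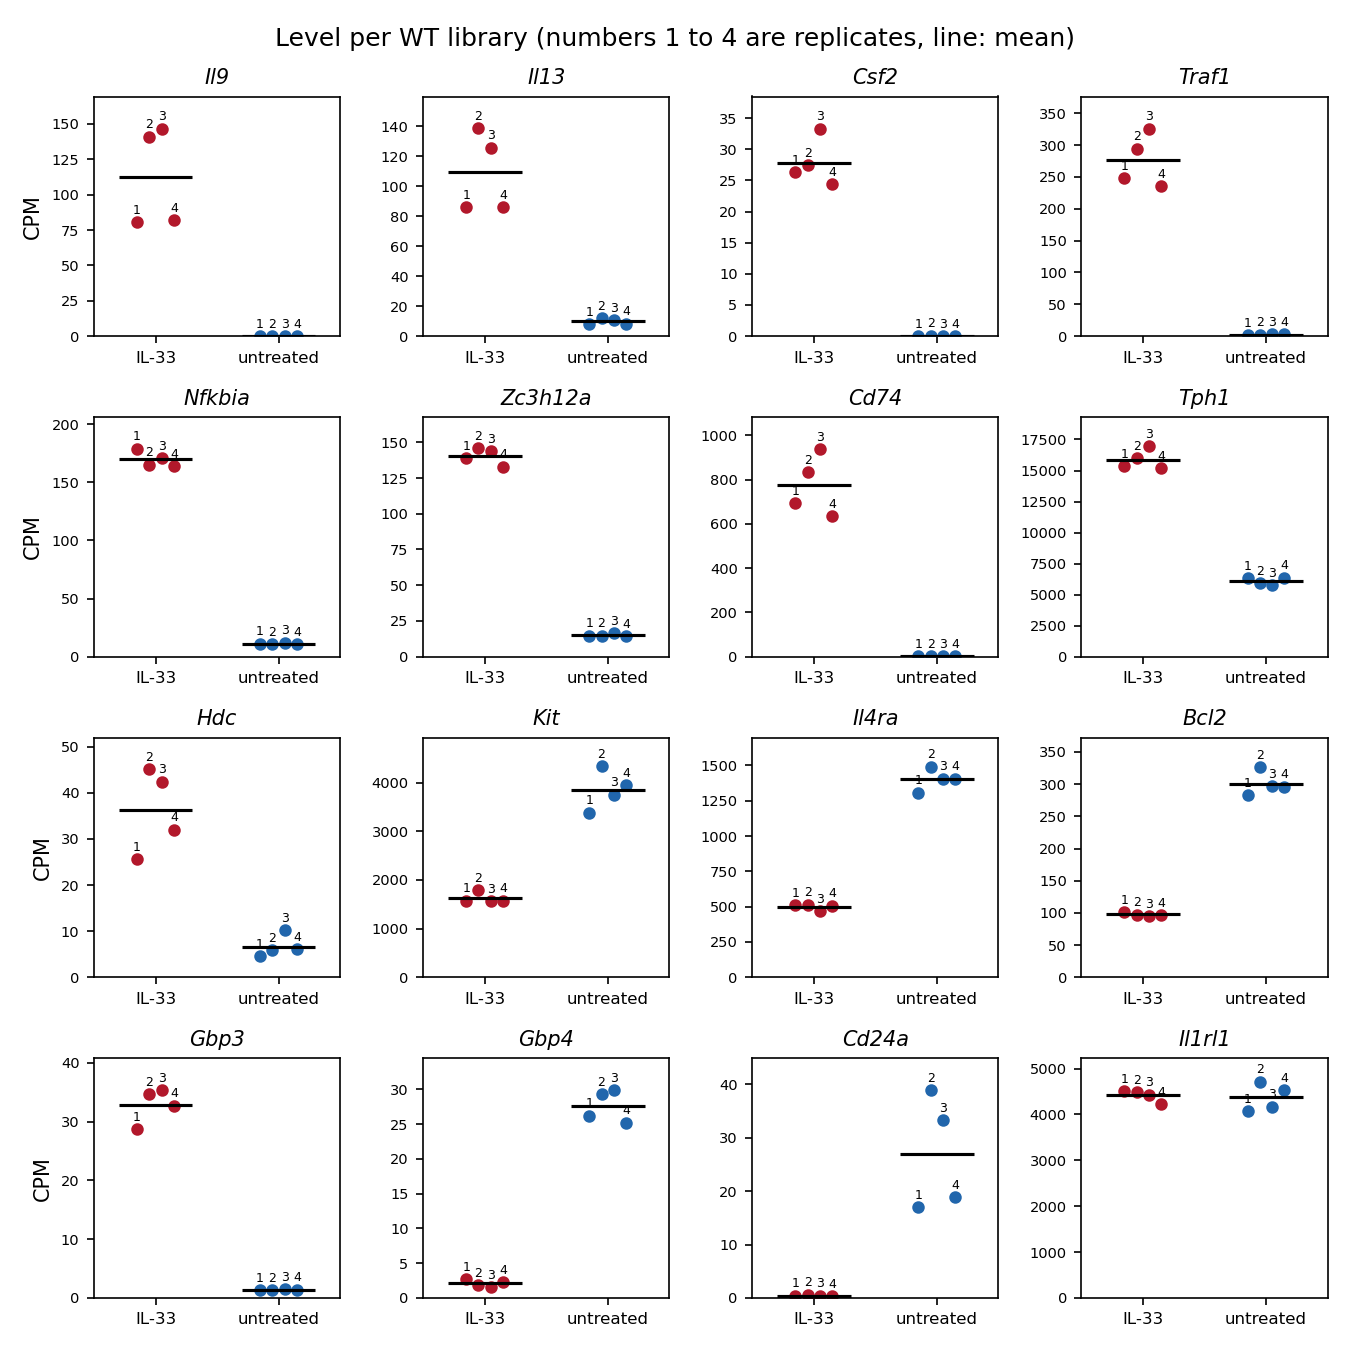
CPM of 16 genes in each WT library (vertical axes, each from 0), with IL-33 in red at the left and untreated in blue at the right of each panel, replicate numbers beside the points and the mean as a line. The groups are apart in every panel but that of Il1rl1, where they overlap.

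Among inflammatory cytokines 7 of 11 rose and 1 fell. The IL-1 gene Il1b had 1604, 1715, 2006 and 1484 CPM with IL-33 and 10.6, 6.78, 6.92 and 9.37 CPM without it, the highest of these levels also per length, at 863 ± 106 RPKM with IL-33 and 4.55 ± 1.01 RPKM without it. Il1a, encoding the related alarmin IL-1 alpha, rose to 125 ± 32.6 CPM with IL-33 against 1.06 ± 0.311 CPM without it. Tnf stood at 93.7, 94.8, 95.3 and 83.5 CPM with IL-33 and 12.9, 11.98, 11.7 and 11.5 CPM without it (log2 fold change 2.93, SE 0.07, adjusted p = 1.31e-15). Il6 was more than 100 CPM at rest and rose 2.13-fold, with 263, 297, 286 and 214 CPM with IL-33 and 146, 121, 116 and 115 CPM without it. Ebi3, the shared beta chain of IL-27 and IL-35, rose to 66.0 ± 2.72 CPM with IL-33 against 1.82 ± 0.235 CPM without it, and Il12a, the alpha chain of IL-12 and IL-35, to 0.501 ± 0.0994 CPM with IL-33 against 0.0578 ± 0.0180 CPM without it. Il16, a chemoattractant for CD4 cells, was the fall of the list, at 12.5, 10.5, 7.94 and 12.1 CPM with IL-33 and 69.6, 85.8, 80.02 and 73.5 CPM without it, with no overlap (log2 fold change -2.84, SE 0.12, adjusted p = 1.76e-12).

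Chemokines recruit leukocytes, and 11 of 13 tested genes rose, 9 of them over 2-fold, with a median log2 fold change of 3.70 that is the same with Ccl22 at its lower bound. Ccl22, a ligand of CCR4, had 22.4, 22.3, 25.5 and 29.9 CPM with IL-33 and no count in untreated cells, which is at least 1597-fold higher when 3 counts over the untreated group are taken as the floor. Ccl1, a ligand of CCR8, had 57.8, 53.5, 46.96 and 58.3 CPM with IL-33 and 0.408, 0.297, 0.198 and 0.418 CPM without it. Cxcl16 stood at 57.8, 66.4, 72.0 and 50.9 CPM with IL-33 and 1.12, 0.743, 1.16 and 1.49 CPM without it and Ccl5 at 10.4, 8.79, 9.74 and 9.42 CPM with IL-33 and 0.302, 0.272, 0.148 and 0.0908 CPM without it, with every value with IL-33 above those without. Their log2 fold changes were smaller than in Nbeal2-/- cells, where Cxcl16 averaged 75.2 CPM with IL-33 and 0.448 CPM without it and Ccl5 21.8 CPM with IL-33 and 0.156 CPM without it, with a difference WT minus Nbeal2-/- of -1.65, SE 0.26, adjusted p = 0.00244 for Cxcl16 and of -1.53, SE 0.41, adjusted p = 0.0406 for Ccl5. Ccl3 rose by 3.70 on the log2 scale and its neighbour Ccl4 by 0.50. Ccl2 and Ccl6 fell by 0.44 and 1.82 on the same scale.

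In the TNF superfamily 13 of 25 genes rose and 9 fell. The CD30 gene Tnfrsf8 had 52.2, 55.6, 67.1 and 73.2 CPM with IL-33 and 0.284, 0.0990, 0.222 and 0.327 CPM without it (log2 fold change 7.98, SE 0.26, adjusted p = 1.16e-13). Tnfrsf9, the gene of the costimulatory receptor 4-1BB, rose to 326 ± 38.8 CPM with IL-33 against 11.2 ± 1.49 CPM without it, and Tnfrsf1b, the gene of TNF receptor type 2, to 90.2 ± 10.2 CPM with IL-33 against 20.3 ± 1.46 CPM without it. The ligand gene Cd70 had 1.25, 1.26, 1.67 and 1.17 CPM with IL-33 and no count in untreated cells. The largest fall of the family was Ngfr, the low affinity receptor of neurotrophins, at 0.570, 0.693, 0.260 and 0.643 CPM with IL-33 and 13.9, 21.01, 18.1 and 16.1 CPM without it. All untreated values were above 10 CPM and all others below 1 CPM (log2 fold change -4.97, SE 0.21, adjusted p = 1.88e-12). Tnfrsf13b (log2 fold change -1.39) and Tnfsf8 (log2 fold change -0.92) fell as well.

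Receptor genes for cytokines moved both ways. Il2ra and Il2rg, the alpha and common gamma chains, rose to 133 ± 23.8 CPM with IL-33 against 23.8 ± 5.70 CPM without it and 216 ± 10.5 CPM with IL-33 against 81.6 ± 3.44 CPM without it (for Il2rg, log2 fold change 1.41, SE 0.04, adjusted p = 3.24e-14). Il27ra, the receptor of IL-27, rose by 1.45 on the log2 scale. The IL-4 receptor alpha gene Il4ra had 513, 515, 467 and 507 CPM with IL-33 and 1307, 1490.5, 1406 and 1406 CPM without it, and the groups stood well apart (log2 fold change -1.49, SE 0.05, adjusted p = 9.46e-14). Il9r, whose ligand gene was switched on, fell to 17.6 ± 2.82 CPM with IL-33 against 34.8 ± 4.46 CPM without it (log2 fold change -0.98). Csf2rb2, the beta chain specific to IL-3 in mice, fell to 5964 ± 305 CPM with IL-33 against 9685 ± 1059 CPM without it, whereas Csf2rb was not called (adjusted p = 0.0549, and 0.0421 with the replicate number as a block). These copies are near identical, so the split of reads between them is uncertain. Tgfbr1, Il18r1 and Il10ra fell by 1.01, 0.95 and 0.79 on the log2 scale. Of 33 cytokine receptor genes 10 rose and 14 fell, beside 28.9% and 28.6% of all genes tested.

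Most called genes of Kit and IL-3 growth signalling were lower at the RNA level, and the signalling itself was not measured. Kit had 1575, 1784, 1569 and 1574 CPM with IL-33 and 3381, 4335, 3749.8 and 3954 CPM without it (log2 fold change -1.25, SE 0.09, adjusted p = 1.23e-09), with every library given IL-33 below every untreated one. Of 21 genes 12 fell and 2 rose, where 28.6% of all genes tested fell and 28.9% rose, with a median log2 fold change of -0.25. In the fit of the 8 WT libraries alone 1 rose, and by limma 15 fell and 0 rose, also 0 at an unadjusted p under 0.05. Stat5b (log2 fold change -0.44), Fes (log2 fold change -0.56) and Sh2b3 (log2 fold change -0.63) were among the falls. Of 23 genes of kinases, STAT factors and their inhibitors 7 rose and 11 fell. Jak2 had the largest rise of these, at 493, 537, 543 and 432 CPM with IL-33 and 125, 149, 142 and 141 CPM without it (log2 fold change 1.85, SE 0.08, adjusted p = 1.08e-12). Stat3 fell to 102 ± 3.32 CPM with IL-33 against 211 ± 17.4 CPM without it, the feedback inhibitor gene Socs1 to 111 ± 1.51 CPM with IL-33 against 212 ± 7.27 CPM without it and the survival kinase gene Pim1 to 440.4 ± 22.4 CPM with IL-33 against 747 ± 46.2 CPM without it.

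Of the 3 chains of the IgE receptor 1 rose slightly, while several signalling genes behind it fell. Fcer1a, the IgE-binding chain, stood at 5053, 5149, 5307 and 4929 CPM with IL-33 and 6218, 5321, 5605 and 5243 CPM without it. The ranges overlapped and the gene was not called (log2 fold change -0.13, SE 0.06, adjusted p = 0.0573), although limma and DESeq2 called it lower. The beta chain gene Ms4a2 was not called, and the gamma chain gene Fcer1g rose by 0.20 on the log2 scale, a call that limma did not make. Of 40 genes of the list 11 rose and 19 fell, and by limma 7 rose and 21 fell. The adaptor genes Lat (log2 fold change -0.85) and Lat2 (log2 fold change -0.62), the kinase gene Btk (log2 fold change -0.69) and Plcg1 (log2 fold change -0.56) fell. Inpp5d, which encodes the inhibitory phosphatase SHIP-1, fell to 420.4, 366, 352 and 396 CPM with IL-33, against 826, 896, 839.6 and 909 CPM without it (log2 fold change -1.18, SE 0.07, adjusted p = 1.31e-10). Dok2, an inhibitory adaptor gene, fell to 4.65 ± 0.625 CPM with IL-33 against 24.5 ± 0.769 CPM without it. Itpr3, an intracellular calcium release channel gene, went the other way at 161, 149, 138 and 155 CPM with IL-33 and 21.3, 26.9, 19.9 and 28.6 CPM without it (log2 fold change 2.64, SE 0.10, adjusted p = 4.93e-13). Its relative Itpr2 fell by 0.57 on the log2 scale.

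Most genes of inhibitory and immunoglobulin-like receptors were lower, with 19 of 29 tested genes falling and 8 rising, and a median log2 fold change of -0.41. Many of these proteins restrain activation through phosphatases, and others of the list, such as the product of Fcgr3, are activating. Cd33 fell to 8.39 ± 0.515 CPM with IL-33 against 44.2 ± 7.95 CPM without it, Cd300lf to 40.5 ± 3.06 CPM with IL-33 against 154 ± 8.88 CPM without it and Treml2 to 50.4 ± 2.59 CPM with IL-33 against 159.9 ± 8.46 CPM without it. The IgG receptor gene Fcgr3 had 17.0, 18.96, 17.2 and 21.5 CPM with IL-33 and 49.8, 60.5, 61.7 and 58.5 CPM without it, without overlap (log2 fold change -1.62, SE 0.09, adjusted p = 3.26e-11), and the inhibitory Fcgr2b fell to 40.7 ± 1.103 CPM with IL-33 against 78.1 ± 9.62 CPM without it. Milr1, encoding the inhibitory receptor allergin-1, ran against most of the list with 199, 202, 191 and 203 CPM with IL-33 and 42.4, 42.9, 42.7 and 42.6 CPM without it (log2 fold change 2.22, SE 0.05, adjusted p = 1.27e-15). Cd72 rose as well, to 37.6 ± 1.83 CPM with IL-33 against 4.60 ± 0.151 CPM without it. Among genes of costimulation and checkpoints 7 rose and 7 fell of 15. Pdcd1lg2, the PD-L2 gene, rose to 27.3 ± 2.72 CPM with IL-33 against 2.31 ± 0.468 CPM without it and the activation marker gene Cd69 to 884 ± 32.0 CPM with IL-33 against 100 ± 4.14 CPM without it, whereas Cd274, the PD-L1 gene, fell to 60.7 ± 2.78 CPM with IL-33 against 86.8 ± 7.91 CPM without it. Cd276 and Icosl fell to 7.34 ± 1.43 CPM with IL-33 against 53.4 ± 9.13 CPM without it and 2.58 ± 0.323 CPM with IL-33 against 14.6 ± 1.31 CPM without it.

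Genes of the granule moved in both directions. Of 17 genes of histamine and serotonin 8 rose and 5 fell. Tph1, the rate-limiting enzyme of serotonin synthesis, had 15355, 15993, 16987 and 15167 CPM with IL-33 and 6313, 5941, 5772 and 6363 CPM without it (log2 fold change 1.38, SE 0.04, adjusted p = 4.3e-14), the largest gain in CPM of any gene. Slc18a2, the transporter that loads histamine and serotonin into vesicles, had 859.7, 776, 757 and 809 CPM with IL-33 and 1775, 1921, 1759 and 1816 CPM without it (log2 fold change -1.18, SE 0.05, adjusted p = 1.65e-12). Gch1, which makes the cofactor of Tph1, fell to 119 ± 2.53 CPM with IL-33 against 244 ± 8.77 CPM without it. Hdc, the histamine-forming enzyme gene, rose with 25.7, 45.2, 42.4 and 32.0 CPM with IL-33 and 4.51, 5.84, 10.2 and 6.10 CPM without it, and its replicates were more scattered than those of Tph1 (log2 fold change 2.46, SE 0.31, adjusted p = 6.38e-06). Histamine receptors divided too, with Hrh1 rising to 9.996 ± 0.317 CPM with IL-33 against 0.198 ± 0.114 CPM without it and Hrh4 falling to 12.6 ± 1.84 CPM with IL-33 against 48.7 ± 6.90 CPM without it.

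Of 18 protease genes 15 rose, 11 of them over 2-fold, and 3 fell, with a median log2 fold change of 1.99. They belong to families of near-identical copies whose reads the counting could have split, so single values are uncertain. The genes that rose most were low at rest. The mucosal chymase gene Mcpt1 had 109, 92.5, 103 and 79.3 CPM with IL-33 and 0.0888, 0.124, 0.0989 and 0.0363 CPM without it and the basophil-type protease gene Mcpt8 103, 88.3, 93.7 and 106 CPM with IL-33 and 8.49, 3.39, 4.94 and 5.16 CPM without it. Both showed a clear gap between the groups. The already abundant chymase gene Cma1 rose by 0.58 and the tryptase gene Tpsb2 by 0.93 on the log2 scale, while Cpa3, encoding carboxypeptidase A3, fell to 16096, 15295, 15084 and 15553 CPM with IL-33, against 23029, 20811, 21122 and 21343 CPM without it (log2 fold change -0.48, SE 0.05, adjusted p = 2.15e-07). Per length Tpsb2 averaged 11306 ± 469 RPKM with IL-33 and 6309 ± 309 RPKM without it and Cpa3 9894 ± 354 RPKM with IL-33 and 14651 ± 647 RPKM without it. Gzmc rose to 36.9 ± 3.93 CPM with IL-33 against 2.75 ± 0.800 CPM without it and Gzmb, already high at rest, by 0.80 on the log2 scale. Ctsg had 181, 352, 471 and 215 CPM with IL-33 and 31.7, 61.7, 83.8 and 30.3 CPM without it, a spread of more than 2-fold within each group. Mcpt2, Mcpt4 and Mcpt8 had larger log2 fold changes in WT than in Nbeal2-/- cells and Tpsab1 a smaller one, with a difference of 2.24, SE 0.17, adjusted p = 5.48e-06 for Mcpt2 and of -2.23, SE 0.27, adjusted p = 0.000351 for Tpsab1.

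The proteoglycan core gene Srgn, on whose chains proteases are packed, rose to 4126, 4399.7, 4314 and 4054 CPM, against 2597, 2237, 2294 and 2237 CPM in untreated cells (log2 fold change 0.85, SE 0.07, adjusted p = 1.37e-08). Of 31 genes of proteoglycan and heparin synthesis 12 rose and 11 fell, beside 28.9% and 28.6% of all genes tested. Chondroitin genes Chpf (9.60 ± 0.915 CPM with IL-33 against 2.003 ± 0.458 CPM without it) and Chst11 (138 ± 1.81 CPM with IL-33 against 78.7 ± 8.26 CPM without it) rose. Heparan modifying genes Ndst1, Glce and Xylt1 fell by 0.82, 0.99 and 1.02 on the log2 scale, and Ndst2, the heparin N-deacetylase gene of mast cells, was called lower by limma alone of the tools run (829.6 ± 24.2 CPM with IL-33 against 857 ± 69.0 CPM without it). Lysosomal genes balanced, with 16 rising and 17 falling of 40. Proton pump subunit Atp6v0a1 rose to 182 ± 4.69 CPM with IL-33 against 75.9 ± 3.24 CPM without it and its partners Atp6v1h and Atp6v1a by 0.94 and 0.78 on the log2 scale. The hydrolase gene Sgsh had the largest fall, at 13.5, 11.3, 8.31 and 12.5 CPM with IL-33 and 68.9, 78.4, 71.3 and 71.5 CPM without it, and Man2b1 fell to 145 ± 9.28 CPM with IL-33 against 440.3 ± 30.0 CPM without it. In the machinery of exocytosis 8 of 38 genes rose and 16 fell. Stx11 rose to 45.4 ± 1.28 CPM with IL-33 against 18.1 ± 1.92 CPM without it, while Sytl1 fell to 2.81 ± 0.317 CPM with IL-33 against 18.2 ± 0.458 CPM without it, Stx3 to 87.8 ± 1.12 CPM with IL-33 against 143 ± 5.52 CPM without it and Unc13d, the priming factor gene, to 146 ± 4.97 CPM with IL-33 against 204 ± 6.60 CPM without it. Nbeal2 itself fell in WT cells, at 183, 253, 249 and 258 CPM with IL-33 and 224, 448, 413 and 423 CPM without it (log2 fold change -0.68, SE 0.17, adjusted p = 0.00268). Replicate 1 was the lowest in both groups, and its untreated value lay below 3 of the 4 values with IL-33.

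Antigen presentation genes were switched on along the class II path. The invariant chain gene Cd74 had 695, 835, 938 and 636 CPM with IL-33 and 1.44, 1.09, 1.26 and 0.999 CPM without it (log2 fold change 9.33, SE 0.31, adjusted p = 1.31e-12). Its transactivator gene Ciita had 16.02, 20.8, 28.0 and 16.4 CPM with IL-33 and 0.888, 0.792, 0.742 and 0.472 CPM without it, also with no overlap. H2-Aa, H2-Eb1 and H2-Ab1 rose to 187 ± 45.0 CPM with IL-33 against 2.22 ± 0.967 CPM without it, 119 ± 29.8 CPM with IL-33 against 1.04 ± 0.382 CPM without it and 209.8 ± 43.3 CPM with IL-33 against 12.6 ± 4.03 CPM without it. The class II loading genes H2-DMa (30.8 ± 6.49 CPM with IL-33 against 4.02 ± 0.510 CPM without it) and H2-DMb1 (70.6 ± 10.1 CPM with IL-33 against 27.5 ± 1.31 CPM without it) rose, while H2-Oa and H2-Ob, whose products oppose loading, fell to 3.69 ± 0.390 CPM with IL-33 against 7.53 ± 0.958 CPM without it and 8.69 ± 0.595 CPM with IL-33 against 14.3 ± 1.39 CPM without it. In all 10 of 15 class II genes rose and 4 fell, with a median log2 fold change of 1.36. The part of other cell types in this rise was not tested. B cell markers summed to at most 0.495 CPM. Monocyte and macrophage markers summed to 61.6 to 435 CPM with IL-33 and 71.2 to 673 CPM without it. Dendritic markers summed to 2.26 to 3.98 CPM with IL-33 and 2.17 to 7.40 CPM without it, and of 3 tested 2 rose and 1 fell. Ccr7, the receptor of migrating dendritic cells, rose within that sum to 0.864 ± 0.363 CPM with IL-33 against 0.0181 ± 0.0257 CPM without it.

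Class I genes gave 12 rises and 8 falls of 23. H2-K1 had 826, 837, 833 and 810.4 CPM with IL-33 and 438, 393, 416 and 387 CPM without it (log2 fold change 1.02, SE 0.05, adjusted p = 1.42e-11), and H2-Q7, H2-Q6 and H2-Q4 rose by 1.73, 1.78 and 1.41 on the log2 scale. These genes are near-identical copies too. The proteasome activator gene Psme2 rose to 228 ± 24.8 CPM with IL-33 against 85.6 ± 11.3 CPM without it, yet the immunoproteasome gene Psmb9 fell to 8.89 ± 0.765 CPM with IL-33 against 34.2 ± 3.25 CPM without it and the peptide transporter gene Tap2 to 134 ± 6.15 CPM with IL-33 against 279.8 ± 22.3 CPM without it. The interferon list, which shares regulators with these genes, had 7 rises and 11 falls of 28. Ifitm3 and Bst2 rose to 198 ± 14.7 CPM with IL-33 against 95.6 ± 13.4 CPM without it and 80.3 ± 2.18 CPM with IL-33 against 40.3 ± 3.15 CPM without it, and Oasl2 fell to 0.414 ± 0.140 CPM with IL-33 against 3.02 ± 0.325 CPM without it.

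The guanylate-binding proteins, GTPases of cell-autonomous immunity, parted by gene cluster. In all 4 of 17 genes of immunity GTPases rose and 12 fell. On chromosome 3, Gbp3 had 28.7, 34.7, 35.4 and 32.7 CPM with IL-33 and 1.30, 1.34, 1.51 and 1.38 CPM without it, far above the untreated values (log2 fold change 4.57, SE 0.08, adjusted p = 1.17e-17), Gbp5 rose to 14.4 ± 1.63 CPM with IL-33 against 2.98 ± 0.451 CPM without it and Gbp2 to 31.2 ± 1.59 CPM with IL-33 against 17.2 ± 1.74 CPM without it, and Gbp7 was not called. On chromosome 5, Gbp4 had 2.69, 1.88, 1.51 and 2.26 CPM with IL-33 and 26.2, 29.3, 29.9 and 25.2 CPM without it, and here the untreated libraries were the higher ones (log2 fold change -3.71, SE 0.24, adjusted p = 8.45e-10). Its neighbours Gbp6, Gbp8, Gbp9, Gbp10 and Gbp11 all fell, by 3.23 to 4.45 on the log2 scale. Copies within each cluster are alike, so the split of reads inside a cluster is uncertain. The related giant GTPase gene Gvin1 fell to 9.56 ± 0.686 CPM with IL-33 against 58.6 ± 15.5 CPM without it.

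Transcription factors of the mast cell lineage fell more often than they rose. Of 36 tested 20 fell and 10 rose, where 28.6% of all genes tested fell and 28.9% rose, with a median log2 fold change of -0.44. Mitf, a master factor of mast cells, had 90.2, 88.3, 78.7 and 90.9 CPM with IL-33 and 146, 161, 148 and 151 CPM without it (log2 fold change -0.80, SE 0.05, adjusted p = 7.51e-10), below the untreated range in every library. Gata1 (128 ± 4.30 CPM with IL-33 against 173 ± 5.45 CPM without it), Tal1 (365 ± 4.08 CPM with IL-33 against 577 ± 35.1 CPM without it) and Bhlhe40 (377 ± 28.4 CPM with IL-33 against 819.8 ± 73.2 CPM without it) fell, and Lyl1 and Maf fell to 37.8 ± 3.996 CPM with IL-33 against 194 ± 5.69 CPM without it and 1.20 ± 0.270 CPM with IL-33 against 15.6 ± 0.737 CPM without it. Myb, a factor of progenitors, ran the other way with 369, 361, 377 and 358 CPM with IL-33 and 152, 166, 167 and 167 CPM without it (log2 fold change 1.17, SE 0.04, adjusted p = 3.76e-13). Of 32 inducible factors 12 rose and 11 fell. Irf4 was switched on, at 19.9, 35.4, 37.1 and 23.3 CPM with IL-33 and 0.0355, 0.0990, 0.0494 and 0.0545 CPM without it, from near 0. Irf5 and the aryl hydrocarbon receptor gene Ahr rose to 48.8 ± 5.35 CPM with IL-33 against 6.11 ± 0.536 CPM without it and 191 ± 21.3 CPM with IL-33 against 65.6 ± 8.90 CPM without it, Batf rose by 0.89 on the log2 scale, and Nfatc2 and Rora fell to 27.7 ± 3.77 CPM with IL-33 against 84.2 ± 9.08 CPM without it and 4.35 ± 1.49 CPM with IL-33 against 12.9 ± 2.07 CPM without it.

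**Figure D3:**
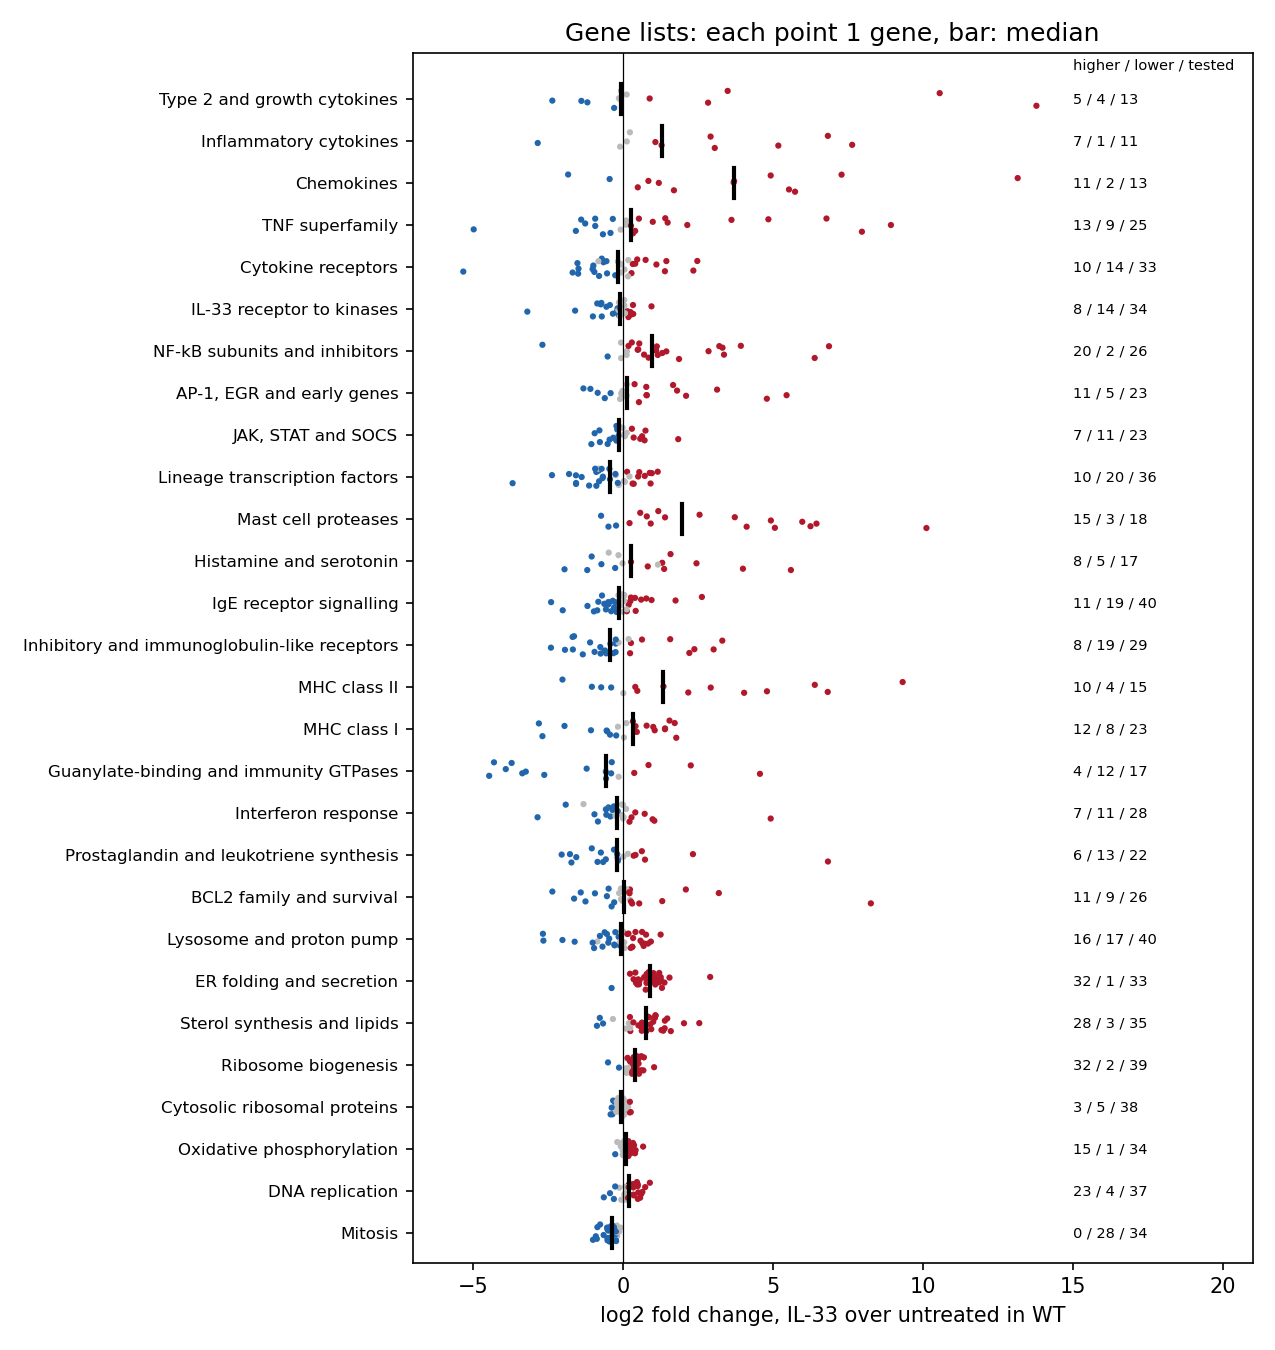
Log2 fold change of IL-33 over untreated in WT (horizontal axis) for each tested gene of 28 gene lists, with red for called higher, blue for called lower, grey for not called and a bar at the median. The numbers at the right are genes called higher, called lower and tested, such as 20, 2 and 26 for NF-kB subunits and inhibitors or 0, 28 and 34 for mitosis.

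Most genes of secretion, sterol synthesis and ribosome biogenesis rose. The folding and export machinery of the endoplasmic reticulum moved nearly as a block: 32 of 33 genes rose, 14 of them over 2-fold, with a median log2 fold change of 0.90. Calreticulin (Calr) had 3075, 3206, 3299.6 and 3229.6 CPM with IL-33 and 1154, 1009, 1104 and 1081 CPM without it (log2 fold change 1.56, SE 0.05, adjusted p = 5.92e-14). The translocon gene Sec61a1 and the coat genes Sec23b and Sec24d rose by 0.87, 1.03 and 0.97 on the log2 scale. The exception was Xbp1, whose protein drives this programme after its RNA is spliced, at 202, 207, 204 and 197 CPM with IL-33 and 255, 264, 274 and 255 CPM without it, lower in each library with IL-33 (log2 fold change -0.37, SE 0.04, adjusted p = 2.97e-07). Gene counts cannot show that splicing. Ern1, encoding the enzyme that splices Xbp1, rose to 145 ± 3.12 CPM with IL-33 against 62.5 ± 8.83 CPM without it. Sterol and fatty acid genes followed, with 28 of 35 rising and 3 falling, and a median log2 fold change of 0.77. Scd1, the stearoyl-CoA desaturase gene, rose to 126 ± 31.0 CPM with IL-33 against 21.4 ± 7.31 CPM without it, while the cholesterol exporter gene Abcg1 and the ubiquitin ligase gene Mylip fell to 24.3 ± 4.09 CPM with IL-33 against 38.3 ± 2.41 CPM without it and 18.1 ± 1.07 CPM with IL-33 against 32.9 ± 1.82 CPM without it.

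Ribosome biogenesis genes rose in 32 of 39 cases with a median log2 fold change of 0.40, led by Wdr12 at 63.4 ± 5.12 CPM with IL-33 against 30.7 ± 2.97 CPM without it, although Myc was called lower by limma alone of the tools run (162 ± 2.88 CPM with IL-33 against 168 ± 1.51 CPM without it). The ribosomal proteins themselves did not follow, with 3 rises and 5 falls of 38, and by limma on log2(RPM + 1) 1 rose and 16 fell. Oxidative phosphorylation had 15 rises and 1 fall of 34 with a median log2 fold change of 0.09, and by limma 8 rises and 3 falls. Cycs, the cytochrome c gene, rose to 99.6 ± 7.43 CPM with IL-33 against 62.2 ± 8.26 CPM without it. Redox and arginine genes gave 20 rises and 3 falls of 26. Nqo1, a target of the oxidative stress factor Nrf2, had 218, 249.6, 277 and 207 CPM with IL-33 and 40.1, 47.2, 50.9 and 43.9 CPM without it (log2 fold change 2.39, SE 0.11, adjusted p = 7.21e-12). The NADPH oxidase subunit genes Ncf4 and Cyba rose to 518 ± 34.1 CPM with IL-33 against 147 ± 7.87 CPM without it and 317 ± 12.1 CPM with IL-33 against 128 ± 15.02 CPM without it, and Nos2 rose at low level to 3.21 ± 0.776 CPM with IL-33 against 0.0470 ± 0.0297 CPM without it. Glycolysis genes mostly missed the threshold, with 7 rises and 4 falls of 29. With the replicate number as a block 14 rose and 8 fell, and by limma 4 rose and 5 fell. The glucose transporter gene Slc2a6 rose in either fit, to 373 ± 12.5 CPM with IL-33 against 131 ± 3.93 CPM without it. Amino acid genes of the ATF4 programme rose in 15 of 27 cases and fell in 6, with Asns up to 35.04 ± 2.33 CPM with IL-33 against 13.1 ± 1.52 CPM without it.

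Cell cycle genes separated replication from mitosis. Of 37 replication genes 23 rose and 4 fell, with a median log2 fold change of 0.21, and no change exceeded 2-fold. The origin recognition gene Orc1 rose to 20.3 ± 0.849 CPM with IL-33 against 10.8 ± 0.623 CPM without it and the helicase gene Mcm5 had 319, 302, 322 and 334 CPM with IL-33 and 219, 193, 227 and 217 CPM without it, higher in every library with IL-33. Of 34 mitosis genes 0 rose and 28 fell by edgeR, with a median log2 fold change of -0.37. At an unadjusted p under 0.05 the rises were 0 as well, by edgeR, limma and DESeq2. Kif23, a motor of cytokinesis, had 55.6, 64.1, 53.3 and 61.4 CPM with IL-33 and 112, 123, 108 and 123 CPM without it (log2 fold change -0.99, SE 0.06, adjusted p = 1.28e-10), and Ccnb2 and Cdc25b fell to 30.7 ± 3.80 CPM with IL-33 against 55.1 ± 9.23 CPM without it and 15.1 ± 2.31 CPM with IL-33 against 28.2 ± 3.57 CPM without it. The WT response differed from that of Nbeal2-/- cells in this programme. In Nbeal2-/- cells the medians were -0.96 for mitosis and -0.13 for replication, and 31 of 34 and 29 of 37 genes had a difference between genotypes at an adjusted p under 0.05, beside 4.56% of all genes tested. With any 1 library left out the differing genes numbered 24 to 32 for mitosis and 26 to 34 for replication. By limma on log2(RPM + 1), 33 mitosis genes fell in WT, and 18 replication genes rose and 5 fell. Cdc20, which activates the anaphase-promoting complex, had a difference WT minus Nbeal2-/- of 0.70, SE 0.11, adjusted p = 0.0024 and Mcm5 of 0.43, SE 0.07, adjusted p = 0.00267. Mxd1, an antagonist of Myc, rose to 114, 116, 113 and 106 CPM with IL-33, against 18.0, 22.4, 19.7 and 23.05 CPM without it (log2 fold change 2.43, SE 0.07, adjusted p = 1.1e-14). Of 24 genes of G1 control 7 rose and 12 fell. The cell cycle kinase gene Cdk6 rose by 0.67 on the log2 scale and the inhibitor genes Cdkn1b and Cdkn2c fell by 0.27 and 0.89.

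**Figure D4:**
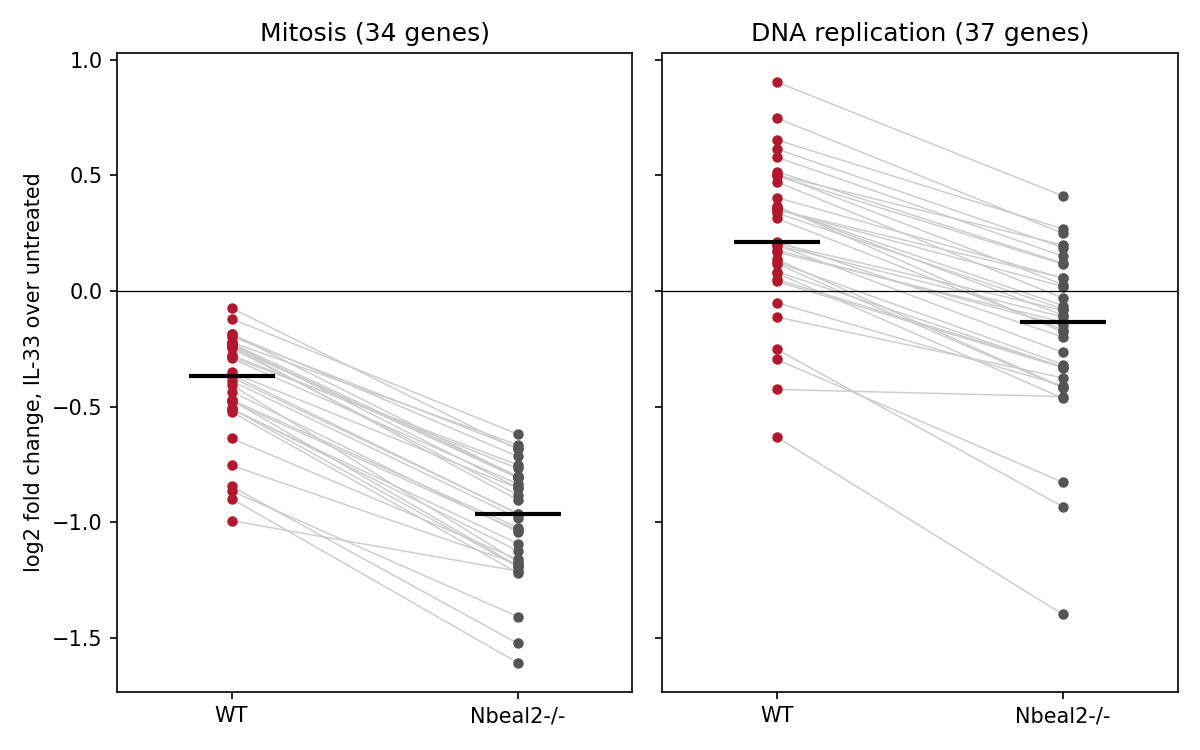
Log2 fold change of IL-33 over untreated (vertical axis) for 34 mitosis genes and 37 DNA replication genes in WT (red, left) and Nbeal2-/- (grey, right), with lines joining each gene and bars at the medians. Medians are -0.37 in WT and -0.96 in Nbeal2-/- for mitosis, and 0.21 in WT and -0.13 in Nbeal2-/- for replication.

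The survival genes Bcl2 and Bcl2l1 moved in opposite directions. Bcl2 had 101, 97.5, 95.04 and 96.9 CPM with IL-33 and 283, 327, 296 and 296 CPM without it (log2 fold change -1.62, SE 0.06, adjusted p = 2.36e-13) and Bcl2l1, encoding BCL-XL, 206, 222, 229 and 208 CPM with IL-33 and 51.3, 51.0, 52.3 and 46.7 CPM without it (log2 fold change 2.10, SE 0.05, adjusted p = 1.22e-15). Neither gene had overlapping groups. Mcl1 fell by 0.29 on the log2 scale. The stress gene Gadd45b rose to 85.3 ± 7.90 CPM with IL-33 against 9.25 ± 0.208 CPM without it while Gadd45g fell to 11.2 ± 1.604 CPM with IL-33 against 57.2 ± 2.87 CPM without it, and the death ligand amplifier gene Bid fell to 31.6 ± 2.11 CPM with IL-33 against 83.6 ± 4.71 CPM without it. In all 11 of 26 genes rose and 9 fell.

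Lipid mediator genes were lower in 13 of 22 cases and higher in 6. The cyclooxygenase genes moved in opposite directions: Ptgs2, the inducible form, had 9.18, 10.5, 8.33 and 13.6 CPM with IL-33 and 0.160, 0.0743, 0.0494 and 0.0545 CPM without it and Ptgs1, the constitutive form, 6.12, 4.65, 5.16 and 7.60 CPM with IL-33 and 20.4, 19.1, 26.8 and 30.7 CPM without it. Neither pair of groups overlapped (log2 fold change 6.84, SE 0.27, adjusted p = 7.79e-13 for Ptgs2, and -2.04, SE 0.18, adjusted p = 4.19e-08 for Ptgs1). On the leukotriene branch Ltc4s fell to 8.48 ± 0.366 CPM with IL-33 against 27.8 ± 2.25 CPM without it and Alox5ap to 197 ± 22.5 CPM with IL-33 against 402 ± 33.3 CPM without it, and Alox5 fell by 0.18 on the log2 scale. Ptgir, the prostacyclin receptor gene, rose to 19.9 ± 1.49 CPM with IL-33 against 3.95 ± 0.488 CPM without it, and the leukotriene B4 receptor genes Ltb4r1 and Ltb4r2 fell to 6.99 ± 1.005 CPM with IL-33 against 23.7 ± 4.84 CPM without it and 1.98 ± 0.0970 CPM with IL-33 against 28.6 ± 9.36 CPM without it.

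Surface molecules gave 10 rises and 16 falls of 31 chemoattractant and purine receptors, 9 and 13 of 29 channels, and 5 and 10 of 18 Toll-like and scavenger receptors. Integrin and adhesion genes had 13 rises and 11 falls of 28. S1pr3, a sphingosine phosphate receptor gene, had 35.7, 35.4, 37.6 and 34.4 CPM with IL-33 and 4.30, 3.56, 3.71 and 3.45 CPM without it, well above the untreated range (log2 fold change 3.25, SE 0.10, adjusted p = 3.22e-14). Entpd1, encoding the ATP-degrading enzyme CD39, fell to 2.39, 2.95, 2.92 and 2.90 CPM with IL-33, against 28.9, 43.4, 39.2 and 34.9 CPM without it (log2 fold change -3.72, SE 0.18, adjusted p = 1.47e-11). The chemokine receptor gene Cx3cr1 fell to 107 ± 17.9 CPM with IL-33 against 261 ± 28.7 CPM without it, and Mrgprb2, the receptor for peptides and drugs on mast cells, to 24.1 ± 6.95 CPM with IL-33 against 42.2 ± 10.7 CPM without it. Cd82, a tetraspanin gene, rose to 195 ± 12.02 CPM with IL-33 against 42.5 ± 0.995 CPM without it, and Itga4 and Itga5, the alpha chains of VLA-4 and VLA-5, to 63.8 ± 7.46 CPM with IL-33 against 20.5 ± 2.68 CPM without it and 95.8 ± 3.81 CPM with IL-33 against 47.4 ± 1.90 CPM without it. Itgb3, the beta chain of the vitronectin receptor, fell to 1.20 ± 0.516 CPM with IL-33 against 12.7 ± 2.61 CPM without it. The potassium channel gene Kcnj2 fell to 0.279 ± 0.0887 CPM with IL-33 against 8.99 ± 1.80 CPM without it and the sodium-calcium exchanger gene Slc8a1 to 7.11 ± 0.976 CPM with IL-33 against 28.4 ± 2.77 CPM without it. Tlr4 fell to 16.7 ± 1.77 CPM with IL-33 against 46.9 ± 5.68 CPM without it and Nlrp3 to 41.2 ± 2.26 CPM with IL-33 against 84.2 ± 6.55 CPM without it, while the scavenger receptor gene Marco rose to 6.78 ± 2.04 CPM with IL-33 against 0.240 ± 0.0800 CPM without it and Tlr1 to 9.62 ± 1.72 CPM with IL-33 against 1.70 ± 0.377 CPM without it. Platelet receptor genes, which mast cells share in part with megakaryocytes, fell: Gp5 had 6.96, 6.31, 5.18 and 6.40 CPM with IL-33 and 89.2, 87.4, 87.5 and 80.3 CPM without it (log2 fold change -3.79, SE 0.10, adjusted p = 5.01e-15) and Gp1ba fell to 64.1 ± 13.6 CPM with IL-33 against 251 ± 14.4 CPM without it, whereas Gp9 rose to 2.63 ± 0.666 CPM with IL-33 against 0.377 ± 0.156 CPM without it. Ncr1, encoding an activating receptor of natural killer cells, rose to 9.15 ± 1.499 CPM with IL-33 against 0.173 ± 0.0750 CPM without it. It was the 1 rise among 4 tested markers of T, natural killer and innate lymphoid cells. Of these markers 2 fell (3 with the replicate number as a block), while Cd3e, Cd8a and Lck did not pass the filter.

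Host transcripts of microRNAs were measured, though mature microRNAs were not. The mature sequences are shown because the seed, bases 2 to 8, in capitals, sets which messages they bind, and no seed is shared between them. They are from RefSeq on GRCm38.p6.
miR-155-5p (chr16:84714143-84714165, plus strand): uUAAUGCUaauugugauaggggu
miR-22-3p (chr11:75463772-75463793, plus strand): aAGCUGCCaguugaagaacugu
miR-142a-3p (chr11:87756903-87756925, plus strand): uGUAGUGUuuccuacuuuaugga
Mir155hg, the host of miR-155, had 11.98, 18.5, 17.9 and 12.9 CPM with IL-33 and 1.26, 1.61, 1.19 and 1.09 CPM without it (log2 fold change 3.58, SE 0.18, adjusted p = 2.61e-11). Mir22hg rose to 40.7, 45.8, 41.9 and 38.2 CPM, against 13.6, 13.96, 11.9 and 12.6 CPM in untreated cells (log2 fold change 1.67, SE 0.09, adjusted p = 4.5e-11). For both hosts the groups were separate. Mir142hg, the host of a microRNA common to blood cells, rose by 0.31 on the log2 scale. These hosts do not stand for their list. Of 16 tested genes of microRNA hosts and long noncoding RNAs 3 rose and 5 fell, with a median log2 fold change of -0.06. Of all genes tested, 28.9% rose and 28.6% fell.

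Several of the largest rises lay outside these pathways. Ces2c, a carboxylesterase gene, had 5.87, 7.72, 5.94 and 9.79 CPM with IL-33 and no untreated count, at least 467-fold higher. Ccdc184 and Lad1 had means of 5.28 and 5.12 CPM with IL-33 and no untreated count either, at least 333-fold and 328-fold higher. Penk, the precursor gene of enkephalin peptides, had 10.8, 8.22, 8.23 and 3.23 CPM with IL-33 and 3 counts in all without it. Its ratio of 497 has a 95% counting interval of 170 to 2415, and replicate 4 lay well below the other 3. Sema6d, a semaphorin gene, had 186, 193, 180.3 and 170.2 CPM with IL-33 and 0.959, 1.04, 0.692 and 0.890 CPM without it, and its log2 fold change was smaller than in Nbeal2-/- cells, which averaged 131 CPM with IL-33 and 0.195 CPM without it (difference WT minus Nbeal2-/- -1.72, SE 0.20, adjusted p = 0.00022). Kcnmb1, a potassium channel subunit gene, rose to 71.3 ± 4.42 CPM with IL-33 against 0.227 ± 0.0710 CPM without it, the epoxide hydrolase gene Ephx2 to 23.7 ± 8.35 CPM with IL-33 against 0.0551 ± 0.0483 CPM without it, Susd2 to 59.6 ± 7.03 CPM with IL-33 against 0.234 ± 0.0661 CPM without it and C1ql2 to 21.7 ± 8.72 CPM with IL-33 against 0.0247 ± 0.0350 CPM without it.

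Among the falls Fat3, an atypical cadherin gene, had 0.196, 0.223, 0.130 and 0.709 CPM with IL-33 and 14.2, 27.6, 19.5 and 19.8 CPM without it and Cd24a 0.392, 0.619, 0.391 and 0.310 CPM with IL-33 and 17.0, 38.9, 33.3 and 18.9 CPM without it. For both genes the untreated value was lowest in replicate 1 and highest in replicate 2, and no value with IL-33 reached 1 CPM. The near-identical Cyp4a12a and Cyp4a12b, fatty acid hydroxylase genes, fell to 7.001 ± 1.13 CPM with IL-33 against 213 ± 45.0 CPM without it and 3.78 ± 0.793 CPM with IL-33 against 139.9 ± 31.5 CPM without it, with their shared reads uncertain. Tgm2, the tissue transglutaminase gene, had 2.81, 1.51, 1.43 and 2.30 CPM with IL-33 and 68.8, 69.5, 74.2 and 64.6 CPM without it (log2 fold change -5.07, SE 0.15, adjusted p = 1.41e-14). Gas6, the ligand of TAM receptors, fell to 2.68 ± 0.663 CPM with IL-33 against 40.7 ± 3.05 CPM without it, Syn2 to 0.496 ± 0.257 CPM with IL-33 against 12.3 ± 3.35 CPM without it and Mamdc2 to 1.69 ± 0.259 CPM with IL-33 against 44.7 ± 7.48 CPM without it.

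**Figure D5:**
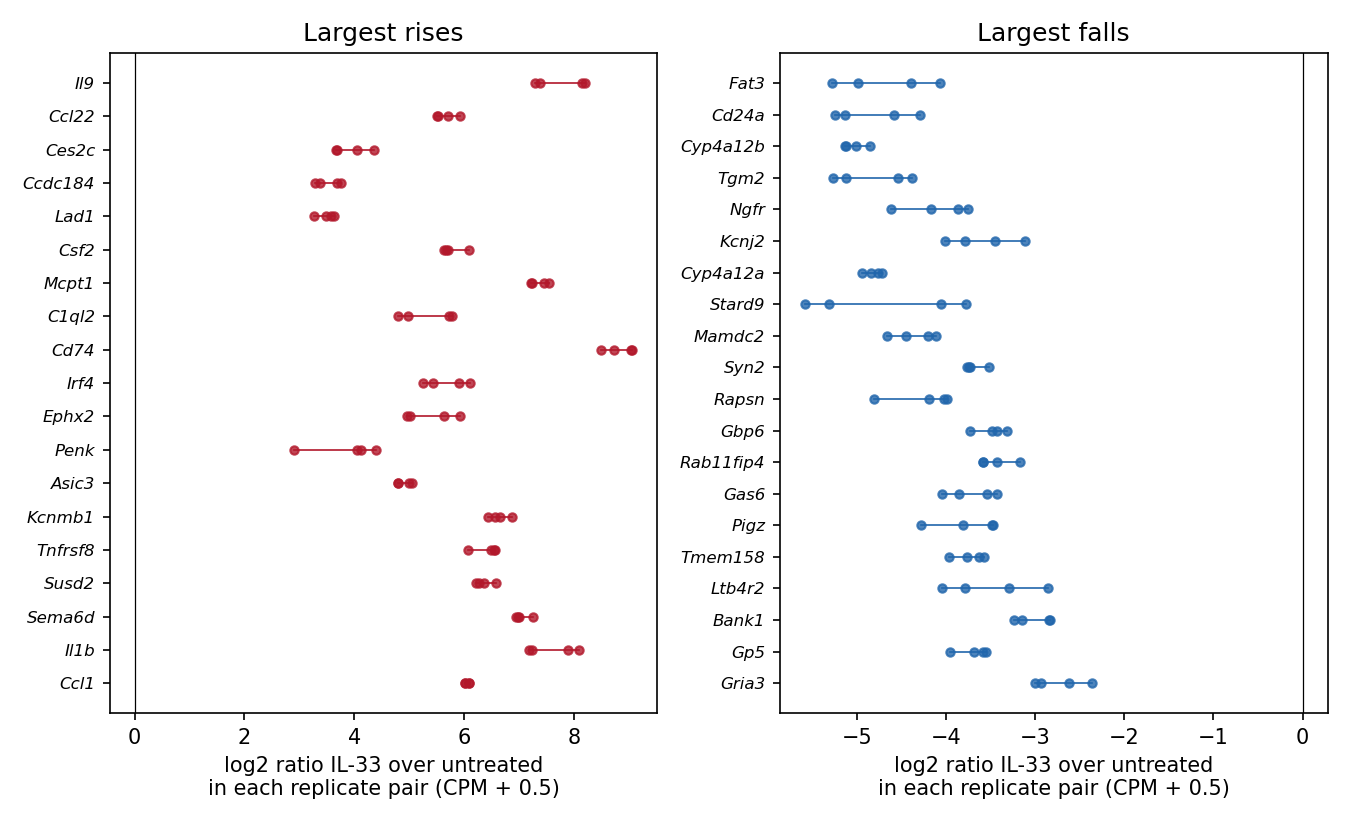
Log2 ratio of IL-33 over untreated in each of the 4 replicate pairs, on CPM + 0.5 (horizontal axes), for 19 of the largest rises at the left and the 20 largest falls at the right, ordered from the top by fitted log2 fold change. The genes were chosen for groups that do not overlap, which places all points of a gene on 1 side of 0, and the pairs of Penk and Stard9 are spread widest.

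The largest differences in CPM, a share of each library, were at a few abundant genes. After Tph1, the largest gains in CPM were Tpsb2, Cma1, the protease processing gene Furin (3582 ± 232 CPM with IL-33 against 1397 ± 101 CPM without it), Calr and Ly6e (2431 ± 125 CPM with IL-33 against 501 ± 52.5 CPM without it). Furin had 3485, 3775, 3769 and 3299 CPM with IL-33 and 1268, 1509, 1431 and 1380.3 CPM without it, with the untreated group the lower in each library (log2 fold change 1.36, SE 0.06, adjusted p = 3.84e-12). Sqstm1, an autophagy receptor gene, and the actin regulators Tmsb4x and Lcp1 gained too, with Sqstm1 at 2747 ± 194 CPM with IL-33 against 960.1 ± 38.8 CPM without it and Lcp1 at 2603 ± 121 CPM with IL-33 against 875 ± 22.9 CPM without it. Behind Cpa3 and Csf2rb2, the largest loss was the prion protein gene Prnp, at 659.8, 629.8, 515 and 621 CPM with IL-33 and 2941, 3132, 3024 and 2976 CPM without it (log2 fold change -2.32, SE 0.07, adjusted p = 2.23e-14). Itm2b, Itm2c and Igfbp5 lost too, to 1035 ± 30.0 CPM with IL-33 against 2094 ± 79.2 CPM without it, 777 ± 26.9 CPM with IL-33 against 1706 ± 81.8 CPM without it and 437 ± 103 CPM with IL-33 against 1257 ± 176 CPM without it. By the deposited length-scaled values Tpsb2, Cma1 and Tph1 gained most, and Cpa3, mt-Co1 and Prnp lost most.

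Most calls in WT cells were also made in Nbeal2-/- cells. The 6902 genes called in both were 77.5% of the 8903 called in WT and 81.0% of the 8524 called in Nbeal2-/-, and 6850 of them had the same direction. The test of the difference itself called 706 genes (4.56%), 58 of them by more than 1 on the log2 scale (0.375%). That count moved with single libraries, to 443 without WT IL-33 replicate 4, 463 without WT untreated replicate 2, 458 and 468 without Nbeal2-/- IL-33 replicates 1 and 3, 461 without Nbeal2-/- untreated replicate 4 and 1170 without WT untreated replicate 1, and DESeq2 called 1130. The sex make-up of the replicates was not the same in both genotypes, with 4 Y-linked genes at 2.38 to 206 RPM in WT and 21.3 to 182 RPM in Nbeal2-/- libraries, and its part in these differences was not tested.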

How the data were processed

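RNA of 16 libraries was extracted with Qiazol and made into strand-specific libraries after poly(A) selection, per the labels' protocols. The authors deposited a table of read counts, of RPM (counts per 1000000 counts) and of RPKM (RPM per kilobase of gene) for 55487 Ensembl genes, per the file headers. GRCm38, bcl2fastq 2.20.0.422 and featureCounts 1.6.5 are named per the submitters' processing notes. The sources used here do not state the aligner, annotation release or strand setting. Each deposited RPM equalled the count divided by its column sum, within 4.91e-11.

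The counts of 15470 genes that passed edgeR's expression filter over the 4 groups were normalised by TMM and tested in R 4.3.3 with edgeR 4.0.16 (robust quasi-likelihood fit of 4 group means over all 16 libraries, Benjamini-Hochberg adjustment over all genes tested, threshold 0.05). CPM in the text are TMM-scaled. The common biological coefficient of variation was 9.56%. Length-scaled levels are the deposited RPKM. Alternatives were a replicate block, the 8 WT libraries alone, RLE scaling, DESeq2 1.42.0, limma 3.58.1 on log2(RPM + 1), other filters and leaving out libraries. The fit was tested on simulated data. Replicates differed by more than counting noise (smallest chi-square per degree of freedom 5.34). The replicate numbers in the labels paired the samples: residuals of same-numbered libraries correlated at 0.303, 0.288, 0.369 and 0.313 in WT and 0.340, 0.253, 0.171 and 0.176 in Nbeal2-/-.

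Of the gene IDs 55141 matched GENCODE M21, used for gene class. The text names the 20 largest rises and 20 largest falls among called genes with at least 5 CPM and no overlap, the largest gains and losses in CPM and RPKM, genes with at most 3 untreated counts, and from 47 gene lists up to 4 members with the largest changes and members whose role calls for it. Members and lists were chosen with earlier results of these data known. A few genes picked by this rule are not reported here.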

Additional observations from a re-analysis of the deposited data

Results flagged for a closer look

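The screen took 226 genes with the largest changes over all genes or within a list, some of them small. Their 452 groups of 4 WT libraries were screened for a library far from the other 3, by Dixon's criterion at 95%. Chance alone places about 1 in 20 groups past it. It picked 27 libraries, spread evenly over replicates 1 to 4 (8, 7, 6 and 6). None of these values reached the other treatment group, but that was fixed in advance, since only genes without overlap between the groups were screened. WT IL-33 replicate 1 was high for Maf (1.602 CPM, the other 3 1.04 to 1.11) and Chpf (10.96 CPM, the other 3 9.01 to 9.22), and low for Entpd1 (2.39 CPM, the other 3 2.90 to 2.95) and Slc1a4 (5.91 CPM, the other 3 6.69 to 6.78). WT IL-33 replicate 2 was high for Arid5a (18.6 CPM, the other 3 15.2 to 15.4), Kit (1784 CPM, the other 3 1569 to 1575) and Tfrc (151 CPM, the other 3 142 to 143), and low for Mycn (7.20 CPM, the other 3 7.66 to 7.73) and Ifitm3 (177 CPM, the other 3 203 to 209). WT IL-33 replicate 3 was low for Il4ra (467 CPM, the other 3 507 to 515), Fdps (23.1 CPM, the other 3 27.0 to 27.6) and Cenpa (20.7 CPM, the other 3 25.1 to 25.7). WT IL-33 replicate 4 was high for Fat3 (0.709 CPM, the other 3 0.130 to 0.223), and low for Tnf (83.5 CPM, the other 3 93.7 to 95.3), H2-Q7 (28.2 CPM, the other 3 33.3 to 33.9), Cd82 (177 CPM, the other 3 199 to 204) and Ccr3 (6.31 CPM, the other 3 9.56 to 9.90). WT untreated replicate 1 was high for Il9 (0.0178 CPM, the other 3 at 0), and low for Il27ra (28.3 CPM, the other 3 31.3 to 31.7), Pik3r5 (1.38 CPM, the other 3 2.37 to 2.45) and Myb (152 CPM, the other 3 166 to 167). WT untreated replicate 2 was high for Ncf4 (159 CPM, the other 3 143 to 145) and Itga2b (2149.8 CPM, the other 3 2068 to 2073). WT untreated replicate 3 was high for Il2rg (86.7 CPM, the other 3 79.4 to 80.5) and Zc3h12a (16.2 CPM, the other 3 14.4 to 14.6), and low for Dusp8 (0.198 CPM, the other 3 0.284 to 0.297). WT untreated replicate 4 was high for Tpsab1 (4.23 CPM, the other 3 2.40 to 2.62).

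For 13 of these genes the response differed between the genotypes by more than 1 on the log2 scale at an adjusted p under 0.05 in edgeR's test of the difference. Rises were smaller in WT, as log2 differences WT minus Nbeal2-/-, for Sema6d by -1.72 (7.66 in WT against 9.38 in Nbeal2-/-), Cxcl16 by -1.65 (5.75 in WT against 7.39 in Nbeal2-/-), Ccl5 by -1.53 (5.54 in WT against 7.07 in Nbeal2-/-), Tpsab1 by -2.23 (6.46 in WT against 8.69 in Nbeal2-/-) and Pik3r5 by -1.39 (1.76 in WT against 3.15 in Nbeal2-/-). Rises were larger in WT for Egr2 by 1.19 (3.15 in WT against 1.96 in Nbeal2-/-), Mcpt2 by 2.24 (6.26 in WT against 4.02 in Nbeal2-/-), Mcpt4 by 1.74 (5.99 in WT against 4.24 in Nbeal2-/-) and Mcpt8 by 1.36 (4.13 in WT against 2.77 in Nbeal2-/-). Falls were larger in WT for Cyp4a12b by -1.06 (-5.22 in WT against -4.17 in Nbeal2-/-), Tgm2 by -1.12 (-5.07 in WT against -3.95 in Nbeal2-/-) and Cyp4a12a by -1.02 (-4.93 in WT against -3.92 in Nbeal2-/-). Dusp8 differed by -4.19, a size that rests on 1 count over the 4 untreated Nbeal2-/- libraries. Near-identical copies among the proteases and Cyp4a12 genes limit the single values. No cause of these differences was tested.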

How the results depend on the processing

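The count of 8903 genes called ran from 6799 under a mean of at least 5 CPM, which tests 10582 genes, to 9107 with the replicate block, and from 7863 to 9453 with libraries left out. With the replicate block 8682 of the 8903 were called in the same direction. Calls over 2-fold numbered 847 higher and 1177 lower; under a mean of at least 5 CPM they were 365 and 511, and by limma on log2(RPM + 1) 394 and 639, where the added pseudocount shrinks low genes. The 706 genes with a genotype difference became 1130 in DESeq2 and 443 to 1170 with 1 library left out; the cause was not tested. The replicate block called 14 glycolysis genes higher and 8 lower and raised the falls among monocyte markers to 4 and eosinophil markers to 2; it moved no other list count by over 1.5 times. In the 8 WT libraries alone 1 Kit and IL-3 gene rose, 1 ribosome biogenesis gene fell and 1 dendritic marker rose.

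Of 302 genes followed, each gene called in the text kept its direction and its call wherever it was tested over 8 settings and 12 that leave out WT libraries, except Fcer1g, which missed the threshold by limma (adjusted p = 0.0578), and Prss34. Prss34 (-0.72) missed it in the 8 WT libraries alone (adjusted p = 0.0821), with no filter on low counts (adjusted p = 0.106), without any 1 of 6 of the 8 WT libraries (-0.95 to -0.44 over all 8 left out) and without both libraries of replicates 1, 3 or 4. Under a mean of at least 5 CPM 282 of them were tested, and leaving out Nbeal2-/- libraries was not run for single genes. The signs that turned were those of 4 genes near 0 that passed no threshold in any setting. Il1rl1 was -0.0151 under a mean of at least 5 CPM, -0.0738 by limma, -0.0410 to 0.0526 with 1 library left out, and -0.0514 and -0.0097 without both libraries of replicates 1 and 3. Ms4a2 was -0.0067 under that filter, -0.0674 by limma, -0.0189 to 0.0417 with 1 library left out and -0.0251 without replicate 1. Egr1 ran from -0.120 to 0.0966 with 1 library left out, and was 0.0268 and 0.0054 without replicates 3 and 4. Zfp36 ran from -0.0826 to 0.331, and was -0.0297 without replicate 1. Ccr2, Csf2rb, Fcer1a, Gbp7, Irak4, Myc, Ndst2 and Traf6 passed the threshold under some alternatives. With the replicate block Ccr2 and Csf2rb did, and the block changed no other call of a named gene.

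In the 250 bases before the start alone, TGANTCA, TGACGTCA and CACGTG were in 4.42%, 2.77% and 8.31% of all promoters. At these depths a gene with 1 CPM has at least 39.1 counts, and genes near 0 in a group have no firm fold.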

Other observations

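Iron genes, which no comparison above covers, rose in 8 of 14 cases and fell in 2. The ferritin chains parted: the light chain gene Ftl1 had 3053, 3284, 3675 and 3257 CPM with IL-33 and 2476, 2270.3, 2546 and 2235 CPM without it, whereas the heavy chain gene Fth1, the subunit that oxidises iron, had 1056, 1127, 1263 and 1113 CPM with IL-33 and 1761, 1545, 1708 and 1417 CPM without it. The groups did not overlap for either gene (log2 fold change 0.48 for Ftl1 and -0.50 for Fth1, edgeR adjusted p = 1.44e-05 and 1.07e-05). Hmox1, encoding the haem-degrading enzyme, rose to 36.9 ± 2.49 CPM with IL-33 against 14.1 ± 2.74 CPM without it and the transferrin receptor gene Tfrc to 145 ± 4.43 CPM with IL-33 against 92.3 ± 3.12 CPM without it. Protease inhibitors and extracellular proteases gave 11 rises and 9 falls of 28. Plau, encoding the protease urokinase, fell to 159 ± 0.856 CPM with IL-33 against 319 ± 13.2 CPM without it and the metalloprotease inhibitor gene Timp3 to 23.3 ± 4.61 CPM with IL-33 against 78.8 ± 13.1 CPM without it.

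Globin genes stood at low levels and split by chain. The beta globin genes Hbb-bs and Hbb-bt rose to 8.98 ± 1.99 CPM with IL-33 against 0.426 ± 0.0943 CPM without it and 12.2 ± 1.96 CPM with IL-33 against 0.641 ± 0.284 CPM without it, and the alpha globin genes Hba-a1 and Hba-a2 fell to 0.0907 ± 0.0746 CPM with IL-33 against 0.569 ± 0.406 CPM without it and 0.0940 ± 0.0568 CPM with IL-33 against 0.444 ± 0.236 CPM without it. Klf1, the erythroid factor gene, was near 0 in both groups (0.428 ± 0.0881 CPM with IL-33 against 0.373 ± 0.0683 CPM without it). Each globin pair is near identical, so values of single genes are uncertain.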
